A study of Mus musculus with 22 samples.

Results

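The mitochondrial genome of the mouse is a small circular DNA, and every row that the deposited gene table places on it (chromosome MT, symbols starting with mt-) was taken as a member. There were 37 such rows among 46603 genes: 13 protein-coding genes, 2 ribosomal RNA (rRNA) genes and 22 transfer RNA (tRNA) genes. Counts above 0 were present for 15 of the 37, the 13 mRNAs and both rRNAs, and each of these 15 had counts in all 22 libraries and passed the filter on low counts. The 22 tRNA genes, which span 59 to 75 bases, were listed at 0 in every library. All 2323 genes of the table spanning under 100 bases were listed at 0 too, and the shortest span with a count was 107 bases, so the zeros of the tRNAs set no limit on their level.

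RNA came from intestinal tissue of wild-type male C57BL/6 mice, and the gut segment was not given in the sources used here. The animals were 7 weeks old and ate a diet with 8% fibre by weight for 7 weeks, which supplied 35% of its energy as fat, 20% as protein and 45% as carbohydrate. The fibre was cellulose in the groups Control (n = 4) and PFOS (n = 4), inulin in Inulin (n = 3) and Inulin_PFOS (n = 3), and pectin in Pectin (n = 4) and Pectin_PFOS (n = 4). The groups with PFOS in their name drank water with perfluorooctanesulfonic acid, a persistent fluorinated surfactant, at a daily dose of 3 µg per kg of body weight. Exposure was read from the sample titles, because a treatment label mentions PFOS for every library.

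Mitochondrial DNA is transcribed from both strands into long precursors, and excision of the tRNAs that lie between most genes frees the mRNAs and rRNAs. Its mRNAs encode subunits of the respiratory chain, which moves electrons from NADH through complexes I, III and IV to oxygen, and of ATP synthase (complex V), while every subunit of complex II is encoded in the nucleus. Most subunits of these complexes and all proteins of the mitochondrial ribosome come from nuclear genes, so both genomes contribute to each of complexes I, III, IV and V. Enterocytes, the absorptive cells of the gut lining, are rich in mitochondria.

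Reads of at least 7 of the 15 genes can also be given to a near-identical stretch of nuclear DNA. On chromosome 1, between 24611535 and 24616197 (GRCm38, minus strand), the annotation holds 7 pseudogenes that repeat mt-Nd4, mt-Nd4l, mt-Nd3, mt-Co3, mt-Atp6, mt-Co2 and mt-Co1 in whole or in part. Over the bases compared, 5 of the 7 had no difference from the mitochondrial gene. For the copy of mt-Co1, 483 of its 492 bases were compared, and the start that was left out differs from mt-Co1. The copy of mt-Nd3 differed by the substitution T3C, with positions counted from 1 at the first base of mt-Nd3 (MT position 9461), and the copy of mt-Co1 by A1066T (MT position 6393). The first 30 bases of mt-Nd3 (MT:9459-9488, plus strand) and of its copy Gm28438 (chr1:24613090-24613119, minus strand) are shown because mt-Nd3 carries the largest differences between groups; the capital marks the single base that separates the pair over 345 compared bases.
mt-Nd3: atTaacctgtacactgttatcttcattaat
Gm28438: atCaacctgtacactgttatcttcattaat
This position may differ between substrains of C57BL/6, and the labels name no substrain. Whether it bore on the division of reads between mt-Nd3 and Gm28438 was not tested.

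Some mitochondrial genes also overlap each other. The last bases of mt-Atp8 are the first bases of mt-Atp6 on the same strand (43 bases, MT:7927-7969), and mt-Nd5 shares 14 bases with mt-Nd6, which lies on the opposite strand (MT:13552-13565). Both overlaps are shown on the plus strand because counts from them cannot be assigned by position alone. In the first, the capitals mark the start codon of mt-Atp6 and the stop codon of mt-Atp8. In the second, they mark the complement of the stop codon of mt-Nd6 and the stop codon of mt-Nd5.
mt-Atp8 and mt-Atp6: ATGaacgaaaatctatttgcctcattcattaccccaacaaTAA
mt-Nd5 and mt-Nd6: TTAatctcgagTAA
The library kit was stranded per the labels, but how the authors used strand in counting is not given in the sources used here.

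Levels of the 15 genes were compared per length, as the deposited TPM (transcripts scaled by length and library), with the TPM of the nuclear copies added. The median over 22 libraries was highest for mt-Co1, the catalytic subunit of complex IV, at 33050 TPM (16480 to 63780), and mt-Co1 was above the next gene in 21 of 22 libraries. This rank depends on the adding. The copy of mt-Co1 covers only 31.3% of the gene and took a median of 6.57% of the pair's counts. Its TPM is scaled by that shorter length. The added TPM is therefore not a level per length of mt-Co1, and its first rank is not settled. The ATP synthase subunit mt-Atp8 (22610 TPM) and the complex IV subunit mt-Co2 (22240 TPM) followed, and their order was not settled, with mt-Atp8 above mt-Co2 in 13 of 22 libraries. Next came mt-Co3 (16700 TPM) and mt-Atp6 (15620 TPM), then after a wide gap mt-Nd3 (6366 TPM) and mt-Cytb (6087 TPM). mt-Nd3 was above mt-Cytb in 8 of 22 libraries, so this pair did not differ beyond its spread. Lower still were mt-Nd1 (4318 TPM), mt-Rnr2 (3157 TPM), mt-Rnr1 (3081 TPM), mt-Nd4 (2739 TPM), mt-Nd4l (2314 TPM), mt-Nd2 (1622 TPM) and mt-Nd5 (1234 TPM). Several of these ranks were not settled either. mt-Rnr2 was above mt-Rnr1 in 12 of 22 libraries and mt-Rnr1 above mt-Nd4 in 13. mt-Nd1 was above mt-Rnr2 in 15, and mt-Nd2 above mt-Nd5 in 15. The lowest was mt-Nd6, a complex I subunit and the only mRNA read from the light strand, at 438.9 TPM (156.6 to 1140), below mt-Nd5 in all 22 libraries. Without the copies the order at the top changed, with median TPM of 22610 for mt-Atp8, 20490 for mt-Co1, 10210 for mt-Co3, 9338 for mt-Atp6 and 7830 for mt-Co2. The effective length behind the TPM of mt-Atp8 was only 13.2 to 25.8 bases. The 2 rRNAs stood this low in the order although ribosomes need them in large amounts; whether the libraries were depleted of rRNA or selected for poly(A) is not given in the sources used here.

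The mitochondrial rows together took between 2.85% and 14.9% of a library's counts. In Control the 4 libraries gave 6.12%, 6.76%, 3.74% and 14.9% (mean 7.88% ± 4.85, SD). In PFOS they gave 4.26%, 7.16%, 9.16% and 8.58% (7.29% ± 2.19), and in Pectin 6.43%, 7.36%, 3.88% and 5.86% (5.88% ± 1.47). The shares on cellulose and on pectin without PFOS therefore overlapped, and Control 4 was the highest of the 22 libraries.

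In Inulin the shares were 6.37%, 5.16% and 12.2% (7.90% ± 3.75), and in Inulin_PFOS 7.90%, 5.61% and 3.95% (5.82% ± 1.98). The 4 Pectin_PFOS libraries gave 2.85%, 3.10%, 3.51% and 3.46% (3.23% ± 0.310). By this share they were the 4 lowest of the 22 libraries and the most alike of any group. That rank did not hold for other forms of the share. For the mRNA rows alone, Pectin 3 (2.956%) and Control 3 (3.099%) were below Pectin_PFOS 3 and 4 (3.19% and 3.193%). With the nuclear copies added, Control 3 (4.465%) was below Pectin_PFOS 3 and 4 (4.711% and 4.513%). As a share of TPM, Inulin_PFOS 3 (5.789%) fell among the Pectin_PFOS libraries (5.592% to 6.052%). For the share of all mitochondrial rows, each library's 95% Wilson interval was at most 0.0320 percentage points wide, which covers counting error only.

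**Figure D1:**
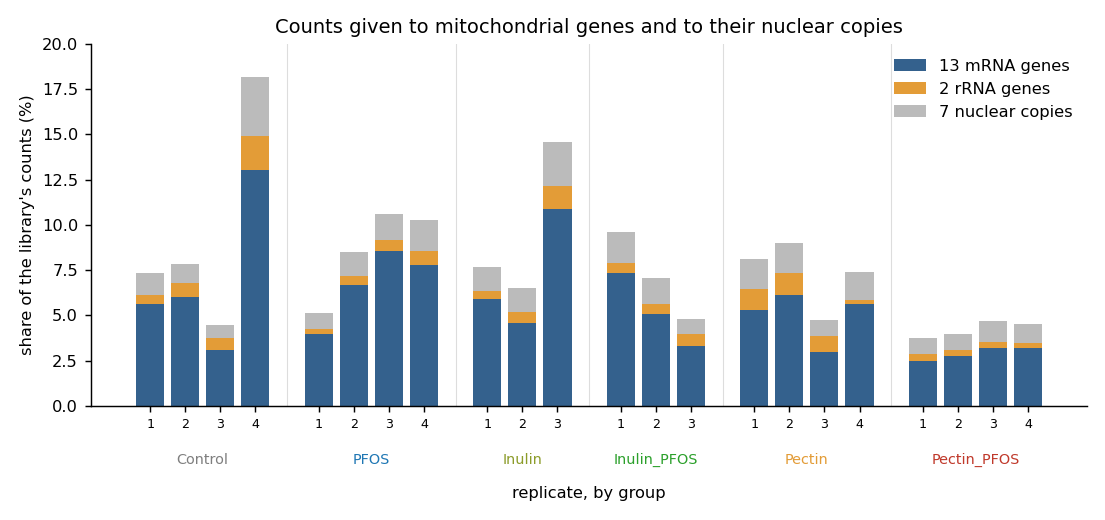
Share of each library's counts given to the 13 mRNA genes, the 2 rRNA genes and the 7 nuclear copies, as stacked bars in percent, by group and replicate. The Pectin_PFOS bars are short in all 4 replicates (2.85% to 3.51% without the copies). Control 4 and Inulin 3 are the tallest, at 18.19% and 14.58% with the copies (14.9% and 12.2% without them).

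As a log2 ratio of mean shares, Pectin_PFOS stood at -0.86 against Pectin and at -1.17 against PFOS, and in neither pair did the groups overlap. With the counts of the 7 nuclear copies added to the share, the ratios were -0.79 and -1.03. Neither pair overlapped then, though Pectin 3 (4.744%) was close to Pectin_PFOS 3 (4.711%). The groups overlapped in the 5 other pairs, where the ratio was -0.11 for PFOS against Control, 0.00 for Inulin against Control, -0.42 for Pectin against Control, -0.44 for Inulin_PFOS against Inulin and -0.33 for Inulin_PFOS against PFOS. Leaving out Control 4 moved the first 3 of these to 0.40, 0.51 and 0.09, and leaving out Inulin 3 moved the second and the fourth to -0.45 and 0.01. For the mRNA rows alone, Pectin_PFOS stood at -0.78 against Pectin and at -1.21 against PFOS. By that share it overlapped Pectin through Pectin 3 (2.956%) and did not overlap PFOS. In bulk tissue, fewer cells that are rich in mitochondria and less mitochondrial RNA per cell cannot be told apart.

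The make-up of the mitochondrial counts varied as well. mt-Co1 alone took 32.3% to 50.5% of them, with a mean of 37.1% ± 2.9 in Pectin (33.3% to 40.04%) and 48.6% ± 1.7 in Pectin_PFOS (46.4% to 50.5%), which did not overlap. These shares leave out the counts given to the nuclear copies. For example, the copy took 59.4% of the mt-Atp6 pair on average in Pectin_PFOS and 36.4% in Pectin. For the mt-Co1 pair it took 8.15% and 10.8%. The part of this division in the mt-Co1 shares was not tested. The 2 rRNAs took 3.57% to 23.7% of the mitochondrial counts, and both ends of this range were Pectin libraries (Pectin 4 and Pectin 3). The depth behind these values was 17613322 to 20261370 counts per library.

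Single genes were tested on the rounded counts of 15763 genes with edgeR (quasi-likelihood F test, robust fit), with p-values adjusted by the Benjamini-Hochberg method and called at an adjusted p under 0.05. Their values are given as CPM, counts scaled by library total and TMM factor, which are comparable between libraries but not between genes of different length. Nothing in the labels says outright that each library is a separate animal, so the p-values measure the spread between these samples. Among the 7 pairs of groups, mitochondrial genes were called only in the 2 that contain Pectin_PFOS, and these share that group's libraries.

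Against Pectin, 3 of the 15 genes fell in Pectin_PFOS, mt-Nd3, mt-Atp6 and mt-Co3, and none rose. All 15 fold changes were negative, with a median log2 fold change of -0.76 (range -2.46 to -0.24) against a median of -0.06 over all genes tested. This comparison had many calls elsewhere: 20.8% of all genes passed, 11.4% as higher and 9.43% as lower. The CPM of the groups did not overlap, with Pectin_PFOS lower, for 4 of the 15 mitochondrial genes and for 13.6% of all genes. Counts of 3 and 4 among 15 genes are a small excess over these shares. The 3 genes called span 348, 681 and 784 bases. Of nuclear genes under 500 bases 17% were called lower, and of those of 500 to 1000 bases 17.3%. The sign was shared by all 15, but these were measured in the same libraries under the same scaling and are not 15 separate observations. All 15 were also negative in Inulin_PFOS against Inulin, where 0 had an unadjusted p under 0.05.

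Against PFOS, the group on cellulose with the same exposure, 4 of the 15 fell: mt-Nd3, mt-Nd4l, mt-Atp6 and mt-Nd6. All 15 fold changes were again negative, with a median of -0.97 (range -1.94 to -0.16) against -0.03 over all genes tested. Here 16% of all genes passed, 7.7% as higher and 8.33% as lower. Groups did not overlap, with Pectin_PFOS lower, for 4 mitochondrial genes (mt-Nd2, mt-Nd3, mt-Nd4l and mt-Atp6) and for 14.5% of all genes. The count depended on the method more than in the comparison with Pectin, with 1 to 12 genes called over 16 other settings against 1 to 5, and mt-Nd3 passed in each of them in both comparisons. The share of all genes called moved with the method too, to 22.4% lower under library totals, where 12 of the 15 were called.

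mt-Nd3 encodes a small membrane subunit of complex I, the entry point for electrons from NADH. Its CPM was 167.6, 202.1, 227.7 and 126.4 in Pectin_PFOS. It was 1283, 1236, 590.2 and 874.4 in Pectin and 325.8, 581.8, 840.4 and 1020 in PFOS. The remaining libraries gave 618.5, 646.9, 667.8 and 1533 in Control, 451.4, 380.7 and 845.7 in Inulin, and 807.9, 406.8 and 427.4 in Inulin_PFOS. All 4 Pectin_PFOS libraries were below every one of the other 18. The log2 fold change was -2.46 ± 0.40 (SE) against Pectin, with an adjusted p of 0.00216 in edgeR, and -1.94 ± 0.39 against PFOS, with an adjusted p of 0.00432 in edgeR.

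The nuclear copy of mt-Nd3, Gm28438, did not follow this pattern. Its CPM was 141.4, 71.5, 145.4 and 103.9 in Pectin_PFOS and 17.3 to 129.9 in the other 18 libraries. The copy thus held 26.1% to 45.7% of the counts of the pair in Pectin_PFOS (mean 38.99% ± 9.1) and 2.85% to 23.2% elsewhere, with 2.85% to 7.03% in Pectin. Gene and copy added together gave 309.0, 273.5, 373.1 and 230.3 CPM in Pectin_PFOS, still below the lowest value of the other 18 libraries, 400.3 in PFOS 1. The added counts fell by 1.83 ± 0.37 on the log2 scale against Pectin (adjusted p = 0.00486) and by 1.37 ± 0.36 against PFOS (adjusted p = 0.0165), both in edgeR. Without PFOS 4 the latter was -1.10 with an adjusted p of 0.0528.

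**Figure D2:**
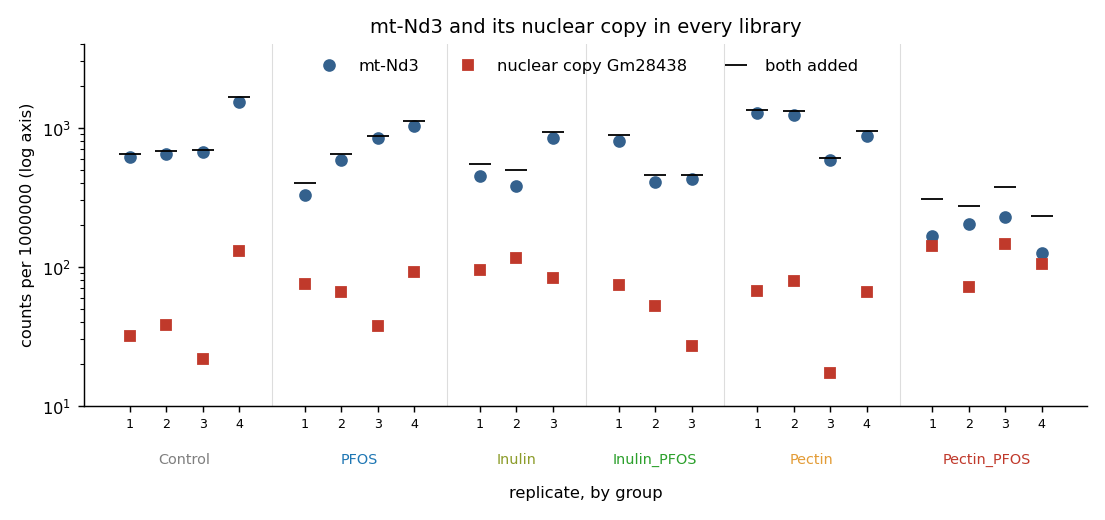
CPM of mt-Nd3 (circles), of its nuclear copy Gm28438 (squares) and of both added (dashes) in each library, on a log axis, by group and replicate. In Pectin_PFOS the circles (126.4 to 227.7) lie below those of every other library and come close to the squares (71.5 to 145.4).

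Of the other complex I genes, mt-Nd4l and mt-Nd6 passed in a single comparison. mt-Nd4l, which shares its last bases with mt-Nd4, had 46.8, 48.1, 45.3 and 36.4 CPM in Pectin_PFOS. It had 90.8, 134.2, 170.2 and 164.0 CPM in PFOS, 91.8, 102.8, 66.6 and 106.0 in Pectin, 76.5, 145.6, 50.6 and 386.8 in Control, 143.3, 73.2 and 251.0 in Inulin, and 173.2, 114.6 and 54.1 in Inulin_PFOS. Pectin_PFOS was again below the other 18 libraries, though Control 3 and Inulin_PFOS 3 came near. The log2 fold change was -1.66 ± 0.49 against PFOS (adjusted p = 0.0277 in edgeR) and -1.06 ± 0.48 against Pectin (adjusted p = 0.118 in edgeR). With the copy Gm10222 added it was -1.12 (adjusted p = 0.144 in edgeR) and -0.45 (adjusted p = 0.547 in edgeR), so the call against PFOS was lost.

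mt-Nd6 has no copy in the chromosome 1 stretch. Its CPM was 45.6, 42.3, 91.3 and 50.1 in Pectin_PFOS and 88.3, 121.7, 174.1 and 214.1 in PFOS, which overlapped through Pectin_PFOS 3. Pectin gave 151.6, 93.5, 48.3 and 109.3, Control 128.2, 131.9, 85.8 and 370.0, Inulin 172.8, 107.8 and 187.4, and Inulin_PFOS 187.6, 112.4 and 67.3. The log2 fold change was -1.38 ± 0.44 against PFOS (adjusted p = 0.0389 in edgeR) and -0.81 ± 0.44 against Pectin (adjusted p = 0.182 in edgeR).

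mt-Nd1, which lies just after the rRNA genes, had 1741, 1413, 2113 and 1616 CPM in Pectin_PFOS, within the range of Pectin (1241 to 3360) and mostly below that of PFOS (1947 to 3840). In Control it spanned 1478 to 6587, in Inulin 2827 to 5664 and in Inulin_PFOS 1504 to 4582. The fold changes of mt-Nd1, mt-Nd2, mt-Nd4 and mt-Nd5 lay between -0.62 and -0.24 against Pectin and between -1.08 and -0.84 against PFOS, and none passed.

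mt-Cytb is the only mitochondrially encoded subunit of complex III, which passes electrons to cytochrome c. Its CPM was 3025, 2656, 3758 and 3143 in Pectin_PFOS, 4539, 4788, 2338 and 5174 in Pectin, and 3316, 5416, 6675 and 6382 in PFOS. Control gave 4328, 5257, 2545 and 13288, Inulin 6417, 4906 and 10426, and Inulin_PFOS 7668, 4615 and 2711. Pectin_PFOS overlapped each of these groups except Inulin, and the log2 fold changes of -0.42 ± 0.42 and -0.79 ± 0.42 did not pass.

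Complex IV, which reduces oxygen, takes mt-Co1, mt-Co2 and mt-Co3 from this genome. mt-Co1 had 18792, 17532, 17852 and 16698 CPM in Pectin_PFOS, 23550, 25977, 16027 and 19374 in Pectin, and 16167, 29816, 35261 and 33078 in PFOS. Control gave 22358, 29335, 11042 and 67509, Inulin 32638, 23188 and 64842, and Inulin_PFOS 40179, 28088 and 18643. The 4 Pectin_PFOS values lay close together, and Control 3, Pectin 3 and PFOS 1 were below all of them. The log2 fold changes of mt-Co1, -0.26 ± 0.43 against Pectin and -0.69 ± 0.43 against PFOS, did not pass.

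mt-Co3 had 2494, 2698, 2962 and 3020 CPM in Pectin_PFOS and 10727, 8790, 4028 and 4839 in Pectin, with no overlap. PFOS gave 2938, 5604, 6480 and 6659, Control 4436, 6175, 4575 and 13788, Inulin 4729, 4536 and 9333, and Inulin_PFOS 7500, 5078 and 3603. PFOS 1 fell among the Pectin_PFOS values, and the other 17 libraries outside that group were above them. The log2 fold change was -1.34 ± 0.40 against Pectin (adjusted p = 0.0238 in edgeR) and -0.96 ± 0.39 against PFOS (adjusted p = 0.0985 in edgeR). With the copy added, the difference from Pectin was -0.99 with an adjusted p of 0.0746.

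ATP synthase takes mt-Atp6, part of its proton channel, and the accessory subunit mt-Atp8. mt-Atp6 had 1386, 1504, 1877 and 1426 CPM in Pectin_PFOS, below all 18 other libraries. Pectin gave 5769, 5213, 2652 and 3962, PFOS 1982, 3280, 4673 and 4882, Control 3291, 4190, 2762 and 9210, Inulin 3183, 2592 and 6304, and Inulin_PFOS 5580, 3397 and 2381. The log2 fold change was -1.51 ± 0.40 against Pectin (adjusted p = 0.0147 in edgeR) and -1.26 ± 0.40 against PFOS (adjusted p = 0.0359 in edgeR). With the copy Gm10925 added, the differences in edgeR were -0.86 (adjusted p = 0.114) and -0.61 (adjusted p = 0.286), and both calls were lost.

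The 2 rRNAs varied widely among the Pectin libraries. mt-Rnr1, the small-subunit rRNA, had 1841, 1429, 1381 and 980.1 CPM in Pectin_PFOS, 4159, 3591, 2851 and 653.1 in Pectin, and 890.9, 1566, 1567 and 2256 in PFOS. mt-Rnr2, the large-subunit rRNA, had 2949, 2210, 2091 and 1697 in Pectin_PFOS, 8466, 8263, 7004 and 1076 in Pectin, and 1590, 2808, 3507 and 5179 in PFOS. Pectin 4 was the lowest of the 22 libraries for both rRNAs, and the other 3 Pectin libraries were above all Pectin_PFOS libraries.

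In Control mt-Rnr1 was 1341, 2323, 1975 and 6426, in Inulin 1856, 2390 and 4584, and in Inulin_PFOS 2076, 2164 and 2287. mt-Rnr2 was 2931, 4793, 3848 and 13022 in Control, 3209, 3352 and 9005 in Inulin, and 4451, 3556 and 4660 in Inulin_PFOS. Neither rRNA passed in any comparison. The smallest adjusted p was 0.0569, for mt-Rnr2 against Pectin at -1.47 ± 0.54 in edgeR.

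**Figure D3:**
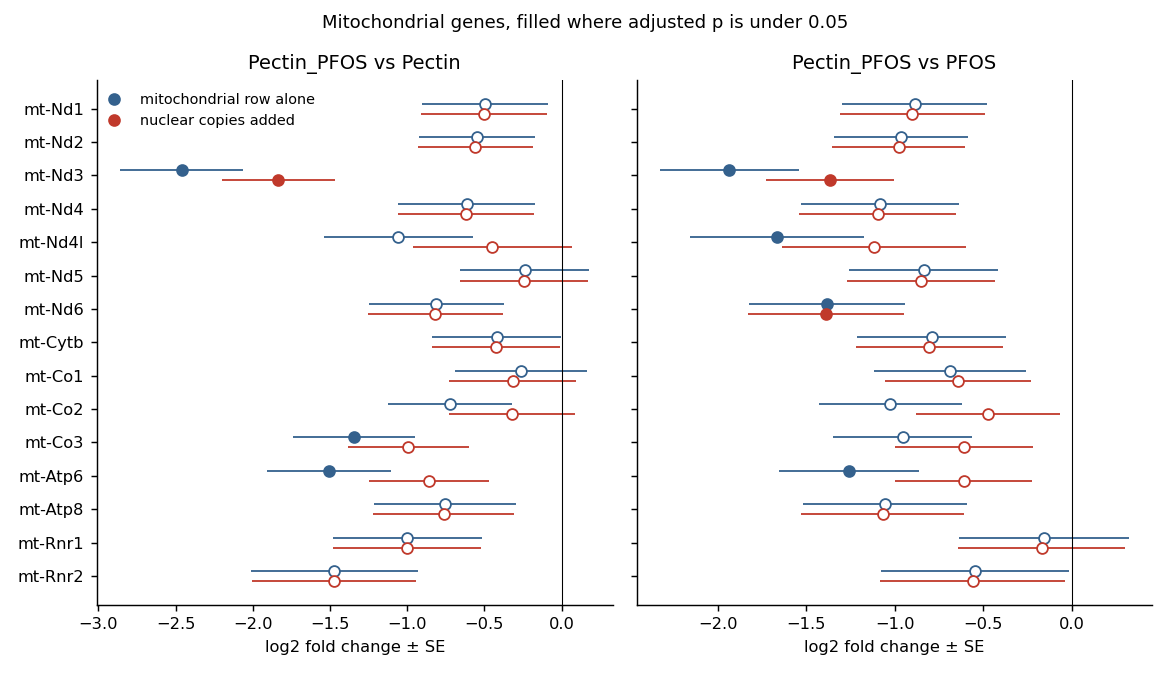
Log2 fold change ± SE of the 15 genes in Pectin_PFOS against Pectin (left) and against PFOS (right), for the mitochondrial row alone and with the counts of the 7 nuclear copies added; filled points have an adjusted p under 0.05. All points lie below 0, and with the copies added 1 point on the left and 2 on the right stay filled.

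With the copies added, 1 of 15 genes fell against Pectin (mt-Nd3, against 9.63% of all genes called lower) and 2 against PFOS (mt-Nd3 and mt-Nd6, against 8.5% of all genes). The other 4 calls were lost, though under library totals 4 and 9 genes were called with the copies added. Library totals without the copies added gave 15.1% and 22.4% of all genes called lower. The copy took 55.5% to 64.4% of the pair's counts for mt-Atp6 in Pectin_PFOS and 21.3% to 48.4% in the other 18 libraries. For mt-Nd4l these shares were 49.2% to 65.7% and 10.6% to 48.4%, and for mt-Co3 39.7% to 54.2% and 21.1% to 38.95%.

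The shift was thus seen in 4 pairs without overlap between Pectin_PFOS and the rest. For mt-Co2 the ranges overlapped (67.6% to 77.6% against 56.5% to 74.7%), as they did for mt-Co1 (2.97% to 12.04% against 3.57% to 18.1%). The copy of mt-Nd4 took at most 0.450% in any library. The widest 95% Wilson interval of a single library was 4.92 percentage points for mt-Nd4l and 2.93 for mt-Nd3, counting error only. Reads from identical stretches cannot be told apart by sequence, so these shares describe how the authors' counting divided the reads, and whether any came from RNA of chromosome 1 was not tested.

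**Figure D4:**
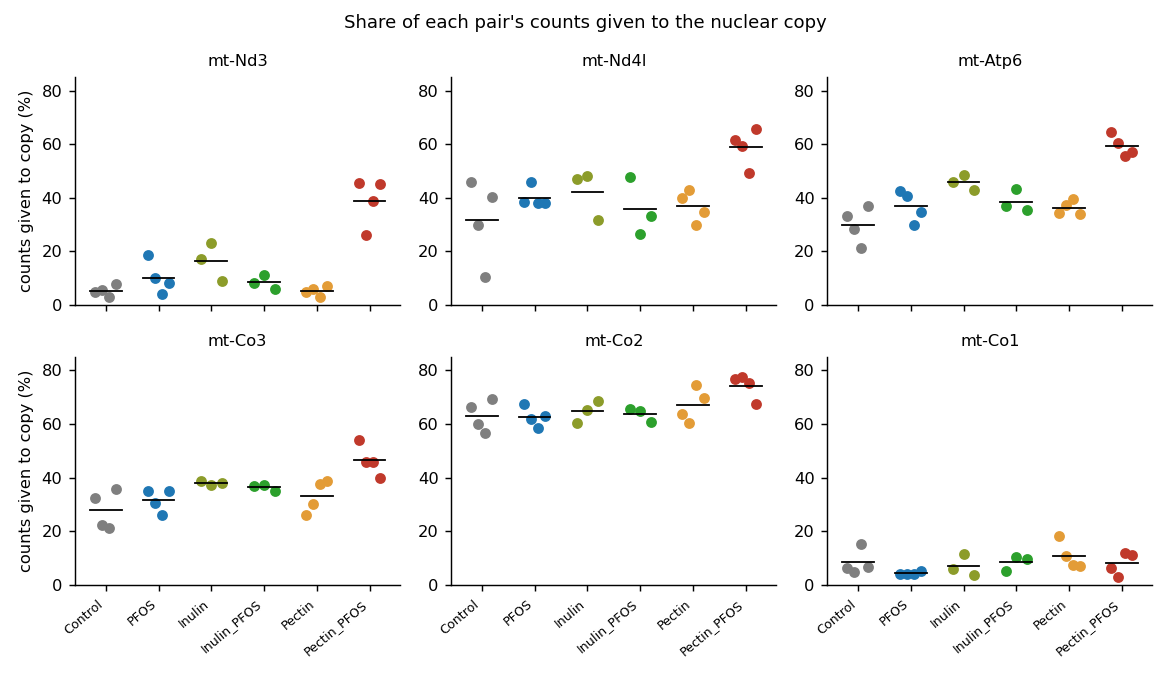
Percent of each pair's counts given to the nuclear copy, with 1 point per library and a line at the group mean, for 6 mitochondrial genes. The Pectin_PFOS points lie above all others for mt-Nd3, mt-Nd4l, mt-Atp6 and mt-Co3 and overlap the others for mt-Co2 and mt-Co1.

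A property of the libraries moved with the same group. The deposited count and TPM of a gene together give the effective length used for it, and the bases taken off the gene length, which in such estimates follow the fragment length, were 243 to 253 in Pectin_PFOS and 209 to 238 in the other 18 libraries. For the short mt-Nd3 this left 106 to 114 bases in Pectin_PFOS against 116 to 143 elsewhere, for mt-Nd4l 65.1 to 72.0 against 72.7 to 96.0, and for mt-Atp8 13.2 to 15.9 against 14.7 to 25.8. Short genes thus had fewer positions from which a fragment could come in that group.

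Nuclear genes under 500 bases had a median log2 fold change of -0.71 in Pectin_PFOS against Pectin (406 genes), those of 500 to 1000 bases -0.33 (1383 genes), and those of 2000 to 4000 bases 0.03 (6286 genes). Against PFOS the same medians were 0.18, 0.03 and -0.04, so short nuclear genes were lower in the one comparison and not in the other. With each gene's effective length as an offset in edgeR, mt-Nd3 was at -2.24 against Pectin (adjusted p = 0.00293) and at -1.72 against PFOS (adjusted p = 0.00598). The calls against Pectin stayed at 3, whereas against PFOS mt-Nd4l (-1.39, adjusted p = 0.0579) and mt-Nd6 (-1.29, adjusted p = 0.0509) were lost. With copies and offset together mt-Nd3 was at -1.61 (adjusted p = 0.0076) and -1.14 (adjusted p = 0.0329).

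Cell type markers differed as well. The summed CPM of 7 fibroblast markers was 128 to 245 in Pectin_PFOS, 466 to 622 in Pectin and 407 to 580 in PFOS. That of 6 B and plasma cell markers was 58.4 to 362 in Pectin_PFOS, 760 to 1650 in Pectin and 65.3 to 364 in PFOS, and that of 6 markers of proliferating crypt cells 70.5 to 119, 147 to 188 and 71.0 to 92.3. The 7 goblet cell markers summed to 13800 to 17100 in Pectin_PFOS, 7520 to 15200 in Pectin and 6340 to 10200 in PFOS. The fibroblast sum was thus below both groups, the next 2 below Pectin while overlapping PFOS, and the goblet sum above PFOS while overlapping Pectin. Paneth cell markers in Pectin_PFOS (1530 to 4450) were also below Pectin (5160 to 10500) and overlapped PFOS (1140 to 2890). Enteric neuron and glia markers (4.81 to 11.1) were below PFOS (12.8 to 18.0) and overlapped Pectin (10.1 to 30.1).

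Markers of enterocytes, 12 in number, summed to 14600 to 96900 over all libraries, with 49700 to 96900 in Pectin_PFOS, 14600 to 61500 in Pectin and 30800 to 64700 in PFOS. All 5 markers of exocrine pancreas were below 1 CPM in every library. Of the 5 colon markers, Car1, Aqp8 and Hoxb13 were also below 1 CPM in every library, but the rest were not. The colon markers together summed to 14.7 to 33.8 CPM in Pectin_PFOS, 13.7 to 25.8 in Pectin and 16.9 to 24.1 in PFOS. The TMM factor was lowest in Pectin_PFOS 1 (0.749), which also had the fewest genes with 10 or more counts (12927). Of the 2 RNAs kept in the nucleus, Malat1 fell against PFOS (-1.23 ± 0.38, adjusted p = 0.0318 in edgeR), and their median was -1.20 against PFOS and 0.65 against Pectin. The part of these differences in the mitochondrial values was not tested.

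The calls rested on single libraries to different degrees. mt-Nd3, on its own row, passed in both comparisons whichever library was left out (-2.64 to -2.30 and -2.15 to -1.67), and mt-Atp6 passed against Pectin in the same way. The call of mt-Co3 against Pectin was lost without Pectin 1, Pectin 2 or Pectin_PFOS 1 (-1.29 to -1.08, adjusted p = 0.065 to 0.087 in edgeR). Against PFOS, the edgeR call of mt-Nd4l was lost without any one of PFOS 2, 3 and 4 and Pectin_PFOS 1 to 4 (-1.71 to -1.53, adjusted p = 0.0512 to 0.0706). That of mt-Atp6 was lost without any of the same 7 libraries (-1.36 to -1.08, adjusted p = 0.0515 to 0.0977), and that of mt-Nd6 without 6 of them, all but Pectin_PFOS 3 (-1.45 to -1.15, adjusted p = 0.0551 to 0.109).

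In the 5 pairs without Pectin_PFOS, 0 of 15 mitochondrial genes passed in edgeR, 0 had an unadjusted p under 0.05, and DESeq2 called 0. PFOS against Control, the effect of the surfactant on the cellulose diet, had 0% of all genes called. The smallest p among the 15 belonged to the rRNAs, at -0.94 ± 0.48 for mt-Rnr1 and -0.91 ± 0.53 for mt-Rnr2, both with an adjusted p of 0.822 in edgeR, and to mt-Co3 at -0.42 ± 0.39 (adjusted p = 0.856). The median of the 15 was -0.22 against -0.04 over all genes, and -0.05 against 0.07 when libraries were scaled by their totals alone. Control 4 bore on this: without it mt-Co3 was at 0.10.

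Inulin against Control also had 0% of all genes called, and the mitochondrial genes had a median of 0.05, with 8 positive and 7 negative, which turned to -0.08 under library totals. The smallest p was that of mt-Nd3 at -0.63 ± 0.41 (adjusted p = 0.385 in edgeR), followed by mt-Nd1 (0.30 ± 0.44, adjusted p = 0.728) and mt-Co1 (0.30 ± 0.46, adjusted p = 0.736). Without Inulin 3 the values of mt-Nd1 and mt-Co1 were -0.0018 and -0.20. Pectin against Control had 1.99% of all genes called, 1.03% as higher. There the median of the 15 was -0.43, with mt-Nd6 at -0.83 ± 0.44 (adjusted p = 0.323 in edgeR), mt-Nd4l at -0.84 ± 0.48 (adjusted p = 0.365) and mt-Nd4 at -0.69 ± 0.44 (adjusted p = 0.424). Without Control 4 mt-Nd4l was at 0.01.

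Inulin_PFOS against Inulin had 0.159% of all genes called and all 15 mitochondrial values below 0, between -0.54 and -0.03. The smallest p belonged to mt-Nd5 (-0.54 ± 0.48, adjusted p = 0.558 in edgeR), mt-Nd2 (-0.48 ± 0.43, adjusted p = 0.561) and mt-Cytb (-0.54 ± 0.48, adjusted p = 0.561). Inulin_PFOS against PFOS had 2.64% of all genes called, 1.84% as higher, and a mitochondrial median of -0.12, which was -0.46 under library totals. Its smallest p values were those of mt-Rnr1 (0.47 ± 0.51, adjusted p = 0.651 in edgeR), mt-Nd3 (-0.34 ± 0.41, adjusted p = 0.686) and mt-Nd5 (-0.30 ± 0.45, adjusted p = 0.761). SEs of about 0.4 to 0.6 on the log2 scale leave changes of a similar size undetectable at 3 or 4 libraries a group.

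Whether the PFOS difference depended on the fibre was asked with interaction terms, the difference on that fibre minus the one on cellulose. For pectin, 0% of all genes passed in edgeR and all 15 mitochondrial values were negative, with a median of -0.55. mt-Nd3 was at -2.14 ± 0.54 with an adjusted p of 0.264 in edgeR, the 1 mitochondrial gene with an unadjusted p under 0.05, and DESeq2 called it (-2.12, adjusted p = 0.0136). mt-Atp6 followed at -1.11 ± 0.55 (adjusted p = 0.414 in edgeR) and mt-Co3 at -0.93 ± 0.55 (adjusted p = 0.495).

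For inulin, 0% of all genes passed and 0 mitochondrial genes had an unadjusted p under 0.05. The values ran from -0.55 (mt-Nd5, ± 0.64, adjusted p = 0.673 in edgeR) to 0.61 (mt-Rnr2, ± 0.81, adjusted p = 0.714), with mt-Nd2 at -0.42 ± 0.57 (adjusted p = 0.727). The PFOS difference averaged over 3 diets had 0.159% of all genes called and 0 mitochondrial genes in edgeR, 5 of which had an unadjusted p under 0.05. The smallest p was that of mt-Nd3 at -0.94 ± 0.23 (adjusted p = 0.12 in edgeR; -0.93 and 0.0111 in DESeq2), then mt-Atp6 at -0.66 ± 0.24 (adjusted p = 0.228) and mt-Rnr2 at -0.89 ± 0.32 (adjusted p = 0.231). These averages contain the Pectin_PFOS libraries.

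Ratios within the mitochondrial genome do not depend on how libraries are scaled. The pairs examined were light to heavy strand (mt-Nd6 to mt-Cytb), the 2 rRNAs (mt-Rnr1 to mt-Rnr2), and rRNA to the mRNA that follows it on the same precursor (mt-Rnr2 to mt-Nd1). Each was compared for PFOS within diets, inulin within exposures and pectin within exposures by an exact stratified permutation test, two-sided, with Benjamini-Hochberg adjustment over 9 tests. None of the 9 passed.

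The log2 ratio of mt-Nd6 to mt-Cytb averaged -5.11 ± 0.18 in Control, -5.22 ± 0.24 in PFOS, -5.51 ± 0.29 in Inulin, -5.35 ± 0.015 in Inulin_PFOS, -5.44 ± 0.36 in Pectin and -5.84 ± 0.32 in Pectin_PFOS. The pectin groups were lower by -0.47 on average (permutation p = 0.00857, adjusted p = 0.0771) and the inulin groups by -0.26 (permutation p = 0.0441, adjusted p = 0.198). Leaving out Pectin 1 (-0.56, adjusted p = 0.011), Pectin_PFOS 3 (-0.55, adjusted p = 0.0367) or PFOS 2 (-0.52, adjusted p = 0.0404) took the pectin value of this permutation test past 0.05, and without PFOS 2 the inulin value passed too (-0.31, adjusted p = 0.0404). The 3 PFOS contrasts had adjusted permutation p values of 0.501 to 0.588.

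The ratio of mt-Rnr2 to mt-Nd1 had the widest spread. On the log2 scale it ran from -1.64 in Pectin 4 to 2.50 in Pectin 3, the lowest and highest of the 22 libraries within 1 group, and its mean was 1.07 ± 1.85 in Pectin, 0.88 ± 0.47 in Control and -0.039 ± 0.33 in PFOS. The ratio of the 2 rRNAs stayed between -1.30 and -0.49, and its pectin difference was 0.16 (permutation p = 0.129, adjusted p = 0.291).

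Nuclear genes that work on the mitochondrial genome or in the same complexes were counted beside its own genes. Against Pectin, Pectin_PFOS was lower for 9 of 36 nuclear complex I subunits (median -0.33), 3 of 9 of complex III (median -0.28), 5 of 11 of complex IV (median -0.32) and 6 of 15 of complex V (median -0.28), with 0 higher in each. Over all genes the median was -0.06, with 9.43% lower and 11.4% higher. Examples were Ndufb4 of complex I (-1.25 ± 0.32, adjusted p = 0.0135 in edgeR), Uqcr11 of complex III (-0.87 ± 0.22, adjusted p = 0.0123), Cox7b of complex IV (-0.95 ± 0.27, adjusted p = 0.0207) and Atp5l of complex V (-1.19 ± 0.27, adjusted p = 0.00807). Complex II had 1 of 4 higher, the catalytic subunit Sdha (0.44 ± 0.14, adjusted p = 0.0292).

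Those subunits are short: the median transcript length was 714 bases for complex I, 605 for complex III, 582 for complex IV and 743 for complex V, the sizes at which nuclear genes at large were lower in this comparison, and 1440 for complex II. Of nuclear genes of 500 to 1000 bases 17.3% were called lower, with a median of -0.33. For those of 1000 to 2000 bases the values were 8.52% and -0.08. The part of transcript length in the calls of the nuclear subunits was not tested. Of 77 mitochondrial ribosome proteins (median length 1020 bases) 19 fell, Mrpl41 with the smallest p (-1.13 ± 0.25, adjusted p = 0.00673 in edgeR), and the list's median was -0.30. Of 21 genes for mitochondrial RNA processing and decay 4 fell and 2 rose, and under library totals 6 were lower and 0 higher. Over all genes 9.43% were lower and 11.4% higher, and under library totals 15.1% and 3.65%. The 4 processing and decay genes that fell were Fastkd2, Slirp, Pnpt1 and Trmt10c, between -1.35 and -1.04. Fastkd2 and Slirp bind mitochondrial RNA, Pnpt1 degrades it, and Trmt10c is part of the enzyme that cuts at the 5′ ends of tRNAs.

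Of 13 measured genes for replication and packaging of mitochondrial DNA, the single-strand binding protein Ssbp1 (-0.82 ± 0.23, adjusted p = 0.0175 in edgeR) and the ribonucleotide reductase subunit Rrm2b (-0.88 ± 0.28, adjusted p = 0.0338) fell. Of 9 transcription genes the elongation factor Tefm fell (-0.78 ± 0.24, adjusted p = 0.0256). Of 22 genes for tRNA charging 1 rose (Iars2) and 2 fell (Yars2 and Mars2). Over all genes 9.43% were lower and 11.4% higher. The counts for transcription and tRNA charging were near or below these shares, and 2 of 13 for replication was little above. Of 13 other mitochondrial proteins 4 fell and 1 rose. The import receptor Tomm20 (-0.90 ± 0.24, adjusted p = 0.0148 in edgeR), the import channel Timm23 (-0.47 ± 0.15, adjusted p = 0.0297) and the prohibitin Phb (-0.74 ± 0.22, adjusted p = 0.0267) were among those that fell, and citrate synthase (Cs), an enzyme of the matrix, rose (0.93 ± 0.25, adjusted p = 0.0165).

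Of 11 chaperones and proteases 2 fell, Hspa9 (-0.58 ± 0.20, adjusted p = 0.0429 in edgeR) and Hspe1 (-0.79 ± 0.27, adjusted p = 0.0438), which help proteins fold in the matrix. The inner membrane proteases Afg3l2 (0.93 ± 0.19, adjusted p = 0.00555 in edgeR) and Spg7 (0.74 ± 0.22, adjusted p = 0.0253) rose. Counts of 2 of 11 are little above the shares over all genes, 9.43% lower and 11.4% higher. Under library totals the calls of Cs (0.73, adjusted p = 0.031 in edgeR) and Afg3l2 (0.70, adjusted p = 0.0263) held, and those of Spg7 (0.49, adjusted p = 0.193) and Sdha (0.22, adjusted p = 0.363) were lost. The other proteins then had 5 lower and 1 higher, the chaperones and proteases 2 lower and 1 higher, beside 15.1% of all genes lower and 3.65% higher.

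Against PFOS, after TMM scaling but, complex II apart, not under library totals, the medians of the nuclear subunits had the opposite sign to that of the mitochondrial genes. Pectin_PFOS was higher for 7 of 36 nuclear complex I subunits (30 positive, median 0.22), 3 of 4 of complex II (median 0.55), 2 of 9 of complex III (median 0.24), 1 of 11 of complex IV (median 0.30) and 2 of 15 of complex V (median 0.27), with 0 lower in each and 7.7% of all genes called higher. The counts of complexes IV and V were close to that share. Examples were Ndufa10 (0.80 ± 0.19, adjusted p = 0.00842 in edgeR), Sdha (0.70 ± 0.14, adjusted p = 0.00369), Uqcrc1 (0.78 ± 0.19, adjusted p = 0.0118) and Atp5a1 (0.58 ± 0.16, adjusted p = 0.0211). Kars (0.97 ± 0.17, adjusted p = 0.00171) and Gars (0.98 ± 0.17, adjusted p = 0.00206), which charge tRNAs in the cytosol and in mitochondria, also rose, while Rrm2b fell (-1.18 ± 0.28, adjusted p = 0.0101).

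When libraries were scaled by their totals alone, the median of all genes in this comparison moved from -0.03 to -0.41, and those of complexes I, III, IV and V moved to -0.16, -0.14, -0.08 and -0.12, so their sign turned while they remained above the median of all genes, and the mitochondrial ribosome proteins moved from 0.23 to -0.16. Complexes I, IV and V then had 0 higher and 2, 1 and 2 lower. Ndufa10, Sdha, Uqcrc1 and Atp5a1 kept their sign without passing (0.41, 0.32, 0.40 and 0.19), Kars and Gars still passed (0.58 and 0.58), and the mitochondrial median was -1.34 with 12 of 15 called, beside 22.4% of all genes called lower and 1.9% higher. Against Pectin the median of all genes moved from -0.06 to -0.27 and that of the mitochondrial genes to -0.97 with 4 of 15 called, beside 15.1% of all genes called lower and 3.65% higher, and the complex II median turned from 0.17 to -0.04.

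**Figure D5:**
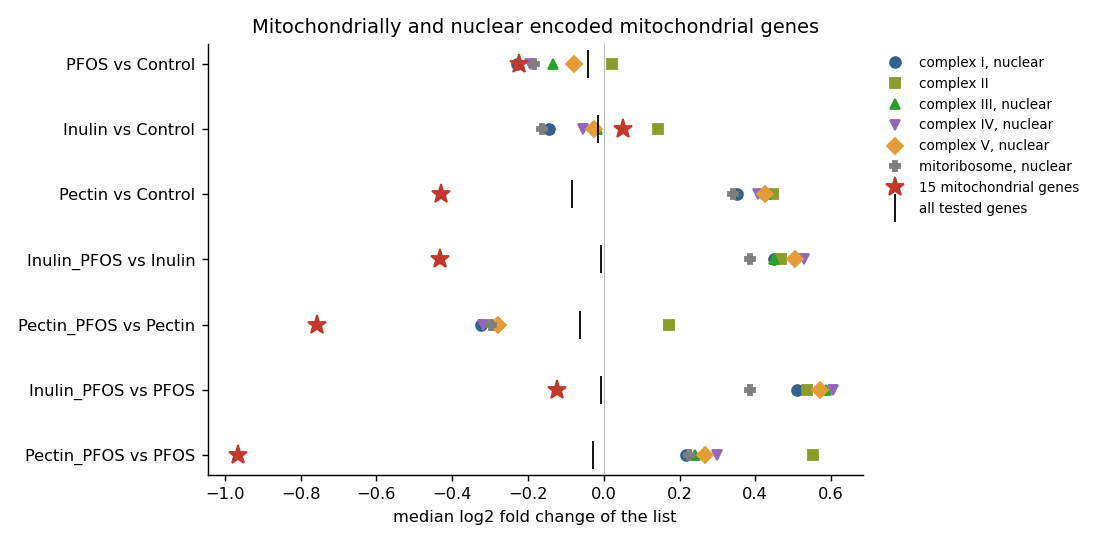
Median log2 fold change of the 15 mitochondrial genes (stars), of nuclear lists for complexes I to V and the mitochondrial ribosome (other symbols) and of all 15763 genes tested (vertical bars), for 7 comparisons, after TMM scaling. The star lies left of the 6 nuclear lists in 5 rows, all but PFOS against Control and Inulin against Control, and the widest gap is in Pectin_PFOS against PFOS (-0.97 for the star, 0.22 to 0.55 for the lists), where under library totals all lists but complex II turn negative.

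The nuclear lists were above the mitochondrial median in 3 further pairs with few or no calls. In Pectin against Control, complexes I to V and the ribosome had medians of 0.34 to 0.45, with 4 genes passing among them (Mrpl35, Ndufa10, Ndufa12 and Atp5g1, none of them under library totals), against -0.43 for the mitochondrial genes. In Inulin_PFOS against Inulin their medians were 0.39 to 0.53 with 0 passing, against -0.43. In Inulin_PFOS against PFOS they were 0.38 to 0.60, with 6 of 36 complex I, 2 of 11 complex IV and 1 of 15 complex V subunits higher, against -0.12. Of all genes, 1.03% were called higher in Pectin against Control and 1.84% in Inulin_PFOS against PFOS. Under library totals 0 of the subunits passed in Inulin_PFOS against PFOS, and the medians of the 6 lists were 0.057 to 0.28. The comparisons share groups (Control, PFOS, Pectin_PFOS and Inulin_PFOS each enter more than 1), and the gap between the lists and the mitochondrial genes was not tested.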

How the data were processed

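The authors deposited expected counts and TPM per gene for 22 libraries of intestinal RNA. Per the labels' protocols, total RNA was taken with RNeasy columns and made into stranded DNBSEQ libraries. HISAT, Bowtie2 and GRCm39 are named in the submitters' processing notes without versions or roles, and the counting program is not given in the sources used here. The coordinates deposited with the expected counts matched GENCODE M21 (GRCm38): 38860 of 46005 shared genes had the same start and end. GRCm38 is therefore named with each position, and sequences are from the GENCODE M21 transcripts.

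Expected counts, of which 3.84% to 4.85% per library were not whole, were rounded. A gene was tested if it passed edgeR's filterByExpr (15763 genes); libraries were scaled by TMM, and 1 fit with a mean per group over all 22 libraries (edgeR 4.0.16, R 4.3.3, biological coefficient of variation 31.9%) gave 10 contrasts, adjusted by Benjamini-Hochberg over all genes tested. The SE was taken from F, whose square root is the fold change (log2) over its SE. Alternatives were limma 3.58.1 on log2(TPM + 1) or log2(TPM + 0.1), DESeq2 1.42.0, other scalings and filters, a replicate block, each library left out, and, chosen after seeing the data, nuclear copies added and effective lengths as offsets. The 7 nuclear copies were taken from a fixed list, and placing their transcripts on the mitochondrial ones gave the gene each repeats. No other pseudogene was placed, so further nuclear copies of the 15 genes may exist. The fits were tested on simulated data. Python 3.11.15, scipy 1.17.1 and matplotlib 3.10.9 did the rest.

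Each mitochondrial row was accounted for. Library values are given for 7 chosen genes and any that passed, statistics for those that passed or else the 3 with the smallest p, and per nuclear list for at most the 4 passing members with the smallest p. The members and lists were chosen with earlier results of these data known. No 2 libraries of a group were alike within sampling noise.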

Additional observations from a re-analysis of the deposited data

Results flagged for a closer look

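Of 104 groups of 4 values examined (mitochondrial share, CPM of each gene, 3 log2 ratios and copy shares), 7 held a library whose gap to its nearest neighbour, as a share of the group's range, passed Dixon's critical value at 95%. Chance gives about 1 in 20 such groups, so 7 of 104 is close to that rate. In Control, replicate 4 stood apart for mt-Nd3 at 1533.2 CPM (nearest 667.8) and for mt-Nd6 at 370.04 CPM (nearest 131.9). It was also the library with the largest mitochondrial share. In Pectin_PFOS, replicate 3 stood apart for mt-Nd6 at 91.306 CPM (nearest 50.1), the value through which that group overlapped PFOS. The log2 ratio of mt-Nd6 to mt-Cytb was -5.363 in the same library (nearest -5.971) and -4.904 in Pectin 1 (nearest -5.564). The nuclear copy of mt-Nd4l took 45.8% of the pair's counts in PFOS 2 (nearest 38.64%), and that of mt-Co1 took 5.266% in PFOS 4 (nearest 4.127%).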

How the results depend on the processing

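In the contrasts without a called gene, DESeq2 called 1 gene (mt-Nd3) in the pectin interaction and 1 in the average over diets, and the other settings and omissions called 0. Against Pectin the count of 3 became 1 with limma on log2(TPM + 1) without a filter, 5 with only the groups of the comparison, 1 with the nuclear copies added (1 also with limma), and 2 to 5 with each library left out (5 without Control 4 or Pectin 4). Against PFOS the count of 4 became 12 under library totals, 2 without a filter on low counts, 11 with limma on log2(TPM + 1), 11 on log2(TPM + 0.1), 9 with limma without a filter, 12 with only the groups of the comparison, 2 with copies added (7 with limma), 2 with effective lengths as offsets, and 1 to 7 with each library left out (1 without any of PFOS 2, 3 and 4 and Pectin_PFOS 1, 2 and 4, 7 without Control 4). Of all genes, 8.33% were called lower against PFOS in the main fit, 22.4% under library totals and 8.5% with copies added in edgeR. For the remaining settings this share is not given here, so their counts cannot be set against a background. With copies added, the 1 gene against Pectin became 4 under library totals, 3 with DESeq2 and 1 to 3 over the omissions. The 2 against PFOS became 7 with limma, 9 under library totals, 1 with offsets and 0 to 4 over the omissions. The cause was not tested.

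A replicate block by the labels' replicate number kept counts of 3 and 4 (and 1 and 2 with copies added) and 0 elsewhere; a replicate block by the other number in the titles gave 1 against PFOS. Same-numbered libraries deviated together with correlations of -0.261 to 0.304, so the numbers were not taken to pair animals.

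Signs turned as follows. Over omissions, mt-Co3 in PFOS against Control ran from -0.59 to 0.10, mt-Nd1 and mt-Co1 in Inulin against Control from -0.0018 to 0.90 and from -0.20 to 0.94, mt-Nd4l in Pectin against Control from -1.14 to 0.014, and mt-Rnr2 in the inulin interaction from -0.058 to 1.24. The log2 ratio of mt-Rnr2 to mt-Nd1 for inulin ran from -0.23 to 0.19, and that of mt-Nd6 to mt-Cytb from -0.34 to -0.19 for inulin and from -0.56 to -0.42 for pectin. Ptcd1, higher against PFOS in edgeR (0.45), was at -0.031 with limma on log2(TPM + 1), with or without the filter or copies added, and at -0.034 on log2(TPM + 0.1).

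Depth limits the copy shares most for mt-Nd4l, whose 95% Wilson interval is up to 4.92 percentage points wide.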
